A study of Mus musculus with 10 samples.

Results

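Integrins and the extracellular matrix proteins they bind were measured in mouse urinary bladder after an inflammatory challenge. A probe was taken when the gene named with it was an integrin alpha or beta subunit (Itga or Itgb), a collagen, a laminin, a thrombospondin, a fibrillin, a fibulin, a nidogen or a matrilin, or when it was Fn1, Eln, Dcn, Bgn, Lum, Vcan, Tnc, Sparc, Spp1 or Vtn. This gave 65 probes for 65 genes, of 5030 probes on the array. The names also brought in Itgb1bp1 and Itgb1bp2, which encode proteins that bind the tail of the beta 1 subunit and are not integrins.

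The 10 arrays were divided by genotype and challenge. The PAR1-/- bladders came from female mice without a working gene for the thrombin receptor PAR1 (F2r), enriched on the C57BL/6J background, and the WT bladders from female C57BL/6J mice. In each genotype 1 array was made for each of LPS 4 h, LPS 24 h, SP 4 h, SP 24 h and saline 24 h, named by the challenge and the time after it. LPS, the lipopolysaccharide of the Gram-negative outer membrane, was Escherichia coli strain 055:B5 at 100 µg/ml. SP is substance P, a neuropeptide of sensory nerves. Its dose was 20 µM in the labels of the PAR1-/- arrays and 10 µM in those of the WT arrays, whereas the study's methods give 10 µM throughout. All mice were anesthetized and instilled through a catheter, and each array holds the RNA of 8 bladders homogenized together, so every condition has 1 array and a ratio between 2 arrays carries no p-value. The saline arrays are from 24 h, so ratios at 4 h also set 4 h against 24 h. In whole bladder, fewer cells of a type and less RNA per cell cannot be told apart.

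Integrins are receptors made of an alpha and a beta subunit that span the membrane, tie the cell to the matrix or to other cells, and signal in both directions. The partner decides the ligand: alpha 5 with beta 1 binds fibronectin, alpha v with beta 3 binds vitronectin and other proteins with an RGD motif, alpha 4 with beta 1 or beta 7 binds VCAM-1 or MAdCAM-1 on endothelium, and alpha L with beta 2 binds ICAM-1. Fibrillar collagens carry the load of connective tissue, type IV collagen, laminins and nidogens build the basement membrane under epithelium, vessels and muscle, and fibrillins, fibulins and elastin form elastic fibres. In the bladder wall these proteins support the urothelium, lie between bundles of smooth muscle and set how far the organ can stretch. Matricellular proteins such as tenascin C and the thrombospondins modulate adhesion and are known to be made during tissue repair.

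Each probe was deposited as scores on a scale of its own, from which whole-number spot intensities were recovered for 62 of the 65 members and 4794 of all 5030 probes. Col5a1, Matn1 and Matn4 were not recovered and have no value here. A spot counted as above background when it exceeded the mode of its array by 3 SD of the background, a threshold between 12.15 and 24.15 on 9 arrays. On the WT LPS 24 h array, 4145 probes (86.5%) hold the value 15, among them 56 members, the next value is 29 and the threshold is 33, so most members have no level there. Arrays were normalized by robust regression on 502 probes above background on all of them. A value under background was set to the threshold. Where saline was the value raised, the ratio is therefore written as "at least", where the challenged value was raised as "at most", and a gene that neither array resolved has no ratio. A bound was kept only where it settles the side of saline, an "at least" value above 1 or an "at most" value below 1, so this rule fixes the direction of a bound. Of the members above background on 1 of the 2 arrays, 10, 3, 16 and 10 in PAR1-/- mice and 0, 11, 10 and 0 in WT mice had a bound on the other side, which was not kept, for LPS 4 h, LPS 24 h, SP 4 h and SP 24 h. Normalization matters here, since without it the median ratio of all probes was 2.07, 2.07, 3.46 and 2.12 in PAR1-/- mice and 2.15, 1.97, 2.85 and 1 in WT mice, for LPS 4 h, LPS 24 h, SP 4 h and SP 24 h. Between the saline arrays, PAR1-/- against WT, 1123 probes above background had an SD of the log2 difference of 0.464, which is 1.38-fold, and 6 differed by more than 3-fold. The 10 members above background on both lay between 0.588-fold (Fbln2) and 1.24-fold (Col10a1). For genes with several probes, probes of a shared gene correlated over the arrays with a median r of -0.07 (32 pairs, each array centred on its median), against 0.01 for all pairs of probes, which limits how far a spot can be tied to its gene. Every member has 1 probe. The smooth muscle marker Acta2 was above background on all 10 arrays and the urothelial marker Upk2 on 4. F2r had 17, 18, 51, 21 and 11 in PAR1-/- mice for LPS 4 h, LPS 24 h, SP 4 h, SP 24 h and saline, against 195, 15, 22, 11 and 10 in WT mice, and no source used here places its probe on the transcript, so it does not check the genotype. Its spots above background were those of SP 4 h and SP 24 h in PAR1-/- mice and that of LPS 4 h in WT mice.

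Many genes known to be abundant in connective tissue were not above background on these arrays. Of the 62 members, 20 (32.3%) were above background on no array, against 34.5% of all probes with a value, and 5 (8.06%) were above it on all 10, against 10.5%. The 20 included fibronectin (Fn1, 8 to 15), elastin (Eln, 8 to 15), the alpha 2 chain of type I collagen (Col1a2, 9 to 18) and the small proteoglycans decorin (Dcn), biglycan (Bgn) and lumican (Lum), each between 9 and 17. They also included the integrin subunits Itga3, Itga6, Itga7, Itgae, Itgb5 and Itgb2l, the laminin chains Lama2, Lamb2 and Lamb3, and Col11a1, Fbln5, Matn2, Thbs2 and Itgb1bp2. The highest intensity any of these reached was 21. The 5 members seen on all arrays were Itgb3, Itgb7, Fbln2, Tnc and Col10a1. By array, 22, 19, 29, 25 and 13 of the 62 members were above background in PAR1-/- mice for LPS 4 h, LPS 24 h, SP 4 h, SP 24 h and saline, against 19, 5, 26, 14 and 17 in WT mice. As shares these were 35.5%, 30.7%, 46.8%, 40.3% and 21% in PAR1-/- mice, with 40.9%, 39%, 47%, 42.7% and 30.4% of all probes, and 30.7%, 8.07%, 41.9%, 22.6% and 27.4% in WT mice, with 39.6%, 11.9%, 43.8%, 30.1% and 31.3% of all probes.

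**Figure D1:**
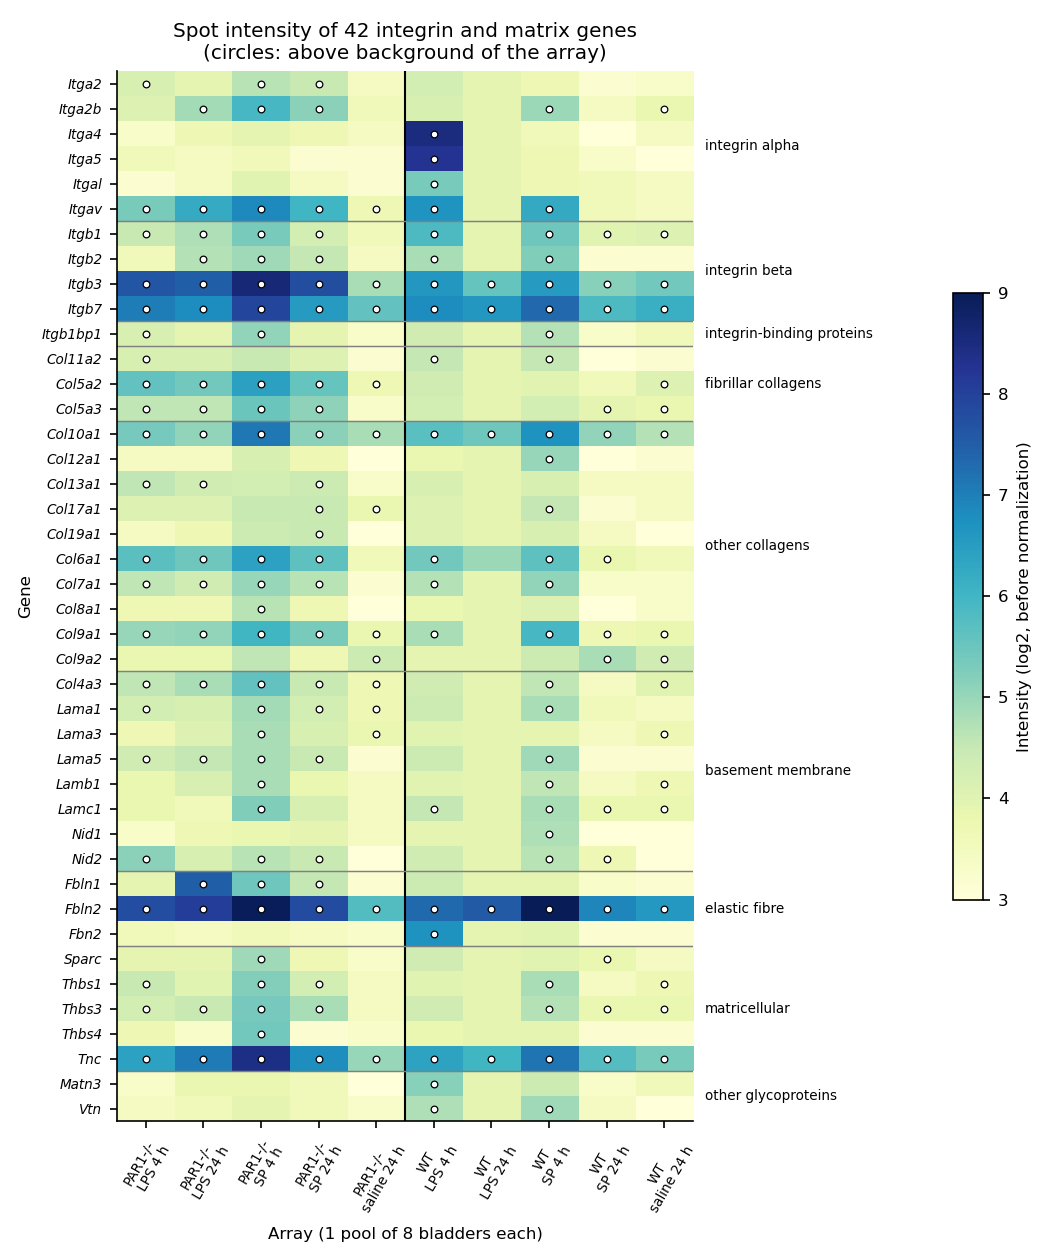
Intensity before normalization (log2, colour) of the 42 integrin and matrix genes above background on at least 1 array (rows, grouped by function) on the 10 arrays (columns, 1 pool of 8 bladders each), with a circle where the spot was above the background of its array. Itga4, Itga5 and Fbn2 are dark on the WT LPS 4 h array alone, and Itgb3, Itgb7, Fbln2, Tnc and Col10a1 carry circles across all columns.

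The largest ratios belonged to integrin alpha subunits 4 h after LPS in WT mice. There 4 of the 28 members with a ratio or bound (14.3%) were more than 3-fold above saline, against 5.46% of all probes. Itga4, the alpha subunit of the leukocyte receptors for VCAM-1 and MAdCAM-1, had an intensity of 10, 13, 15, 13 and 11 in PAR1-/- mice for LPS 4 h, LPS 24 h, SP 4 h, SP 24 h and saline, against 362, 15, 12, 8 and 11 in WT mice. Itga5, the alpha subunit of the fibronectin receptor, had 12, 11, 12, 9 and 9 in PAR1-/- mice and 309, 15, 13, 10 and 8 in WT mice, in the same order of conditions. For each gene 1 array of 10 was above background, and the other 9 did not separate from it. Normalized, the WT ratios 4 h after LPS were at least 15.5 for Itga4 and at least 13.3 for Itga5, and the PAR1-/- arrays gave no ratio.

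Both genes were seen on the same array, so their promoters are shown, from RefSeq (build GRCm38.p6), each with 250 bases before and 50 after the start of transcription, with matches to the GC box GGGCGG on either strand in capitals. Itga4 lies on the plus strand at chr2:79255176-79255475 and Itga5 on the minus strand at chr15:103366742-103367041, and each has 1 start in the table.
Itga4: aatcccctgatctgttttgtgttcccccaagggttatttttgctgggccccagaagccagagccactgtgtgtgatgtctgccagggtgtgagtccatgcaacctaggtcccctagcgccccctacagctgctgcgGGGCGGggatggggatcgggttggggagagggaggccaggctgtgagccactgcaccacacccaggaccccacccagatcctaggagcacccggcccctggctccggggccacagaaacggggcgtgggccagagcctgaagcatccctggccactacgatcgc
Itga5: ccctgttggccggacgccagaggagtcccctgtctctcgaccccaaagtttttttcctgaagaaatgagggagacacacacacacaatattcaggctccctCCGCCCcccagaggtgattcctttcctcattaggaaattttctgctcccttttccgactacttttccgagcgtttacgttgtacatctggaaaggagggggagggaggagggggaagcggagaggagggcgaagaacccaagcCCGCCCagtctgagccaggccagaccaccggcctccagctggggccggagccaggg
The search covered the GC box GGGCGG, the TATA box TATAAA, the AP-1 site TGANTCA and a 10-base NF-kappaB site on both strands. Itga4 held 1 GC box and Itga5 held 2, a motif present in 35.7% of all 32851 promoters of this length and in 31 of the 51 promoters (60.8%) that the table has for 44 of the 65 members. Neither window held the letters of the other motifs, which occur in 13.6% (TATAAA), 7.81% (TGANTCA) and 1.63% (the NF-kappaB site) of all promoters. The matches are a description of the letters only.

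The other members past 3-fold on the same array were Fbn2 and Itgav. Fbn2 encodes fibrillin 2, a microfibril protein prominent in developing tissue. Its intensity was 12, 11, 12, 11 and 10 in PAR1-/- mice for LPS 4 h, LPS 24 h, SP 4 h, SP 24 h and saline, against 104, 15, 16, 9 and 9 in WT mice, which again is a signal on 1 array, and the WT ratio 4 h after LPS was at least 4.61. Itgav, the alpha v subunit shared by several receptors for RGD proteins, was resolved far more widely. It had 40, 75, 116, 65 and 13 in PAR1-/- mice, all above background, and 102, 15, 76, 12 and 11 in WT mice, where the LPS 4 h and SP 4 h arrays stood above background and the others did not. Its normalized ratios were 1.4, 2.56, 1.93 and 2.11 in PAR1-/- mice for LPS 4 h, LPS 24 h, SP 4 h and SP 24 h, and at least 4.53 for LPS 4 h and at least 1.94 for SP 4 h in WT mice. The 4 PAR1-/- ratios were measured on both arrays and were over 1 also without normalization, whereas the WT values are bounds.

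Spots seen on 1 array only were spread unevenly over the arrays. Of the 62 members 10 (16.1%) were above background on 1 array alone, against 12.1% of all probes, and 5 of the 10 (50%) were on the WT LPS 4 h array, against 19.9% of all probes seen on 1 array only. Beside Itga4, Itga5 and Fbn2 these were Itgal, the alpha subunit of the leukocyte receptor for ICAM-1, with 40, and Matn3, a cartilage matrilin, with 36. The others were Col8a1 with 25 and Thbs4 with 42 in PAR1-/- mice and Col12a1 with 32 and Nid1 with 27 in WT mice 4 h after SP, and Col19a1 with 22 in PAR1-/- mice 24 h after SP. Over all probes, 14 spots of 100 or more were seen on 1 array only, a limit chosen after the values were seen, with 6 of them on the WT LPS 4 h array, of which Itga4, Itga5 and Fbn2 were 3. No second array measures this condition, and the 1 WT spot of F2r above background lies on this array.

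**Figure D2:**
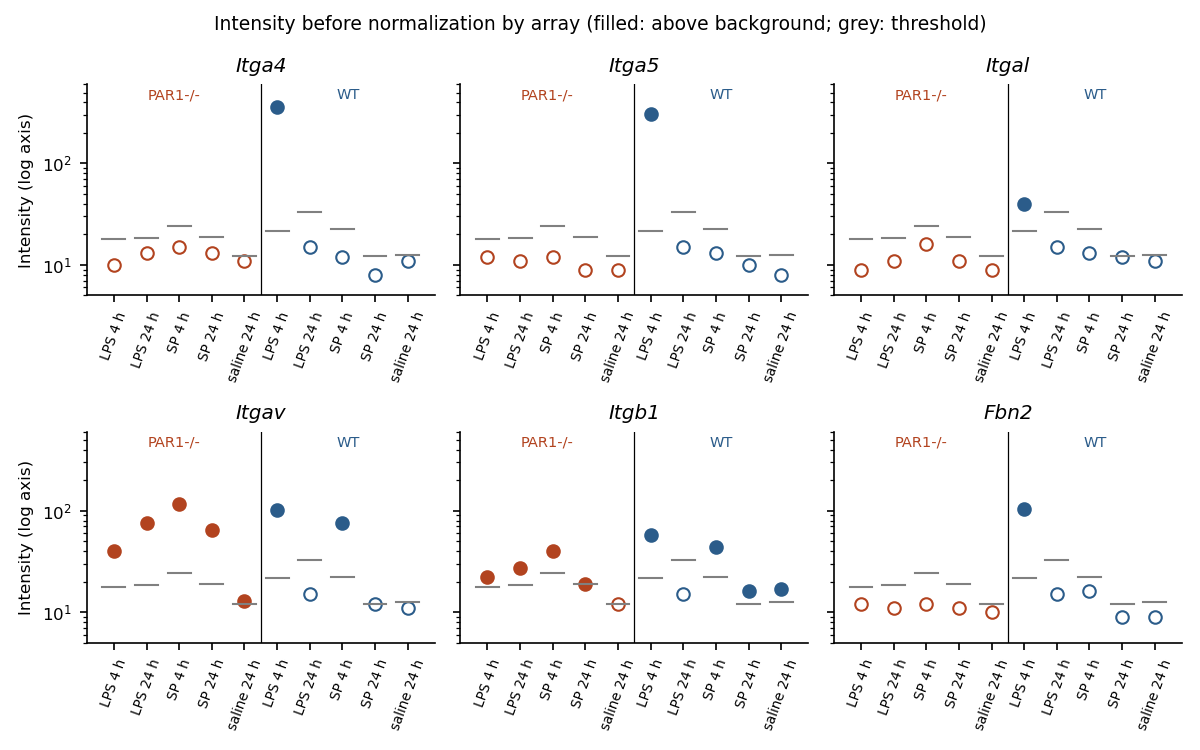
Intensity before normalization (vertical log axis) of Itga4, Itga5, Itgal, Itgav, Itgb1 and Fbn2 on the 5 PAR1-/- arrays and the 5 WT arrays (horizontal axis), with filled points above the background threshold of the array (grey line) and open points under it. Itga4 (362), Itga5 (309), Fbn2 (104) and Itgal (40) have a single filled point, 4 h after LPS in WT mice, while Itgav and Itgb1 have filled points in both genotypes.

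The beta subunits that pair with these alpha subunits were measured at the same time. Itgb1, the partner of alpha 4, alpha 5 and alpha v among others, had 22, 27, 40, 19 and 12 in PAR1-/- mice for LPS 4 h, LPS 24 h, SP 4 h, SP 24 h and saline, against 58, 15, 44, 16 and 17 in WT mice. Its highest value was on the WT LPS 4 h array, at 1.82-fold the saline level, whereas SP gave 0.83 at 4 h and 0.923 at 24 h in WT mice. Without normalization these WT ratios were 3.41, 2.59 and 0.941, so the direction for SP 4 h depends on the scaling. In PAR1-/- mice the saline spot was under background, so LPS 24 h is given as at least 1.15, and LPS 4 h, SP 4 h and SP 24 h, though above background, have bounds under 1 that leave the direction unsettled. Itgb7, the other partner of alpha 4, was bright everywhere, with 131, 113, 246, 94 and 48 in PAR1-/- mice and 112, 99, 163, 58 and 70 in WT mice. Its normalized ratios were all under 1, at 0.84, 0.733, 0.755 and 0.587 in PAR1-/- mice and 0.637, 0.681, 0.489 and 0.789 in WT mice, and without normalization 7 of the 8 were over 1, the exception being 0.829 for SP 24 h in WT mice.

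The leukocyte integrins Itga4, Itgal, Itgae, Itgb2 and Itgb7 form a list of 5, of which 1 (Itga4) passed 3-fold in a single comparison. Itgb2, the common subunit of the beta 2 integrins of leukocytes, had 12, 26, 30, 23 and 11 in PAR1-/- mice and 28, 15, 38, 9 and 9 in WT mice, with ratios of at least 1.12 for LPS 24 h in PAR1-/- mice, and of at least 1.29 for LPS 4 h and at least 1.05 for SP 4 h in WT mice. The 8 leukocyte markers on the array were mixed. Csf1r was above background on 9 arrays, with 70 at most, and S100a9 on 7, with 42 at most. Ptprc, the pan-leukocyte phosphatase CD45, was above it on 4, with 25 at most, and Ltf on 1, with 31. Cd14, Cd3e, Cd68 and S100a8 were above background on no array. Summed before normalization, the 8 had an intensity of 142, 121, 211, 131 and 90 in PAR1-/- mice and 142, 120, 182, 99 and 112 in WT mice for LPS 4 h, LPS 24 h, SP 4 h, SP 24 h and saline. Most of each sum is background, and single markers differed between the genotypes, as Csf1r did with 44 in PAR1-/- and 22 in WT mice for LPS 4 h. Their part in the values of Itga4 and Itgal was not tested. Itga2b, the alpha subunit of the platelet fibrinogen receptor, had 17, 29, 60, 35 and 12 in PAR1-/- mice and 18, 15, 31, 11 and 14 in WT mice. Itga2, a collagen receptor subunit, was above background on 3 PAR1-/- arrays, with 25 at most, and on no WT array.

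Of the 21 members above background on 4 or more arrays, Itgb3 had the largest genotype difference, which did not pass its test. This beta 3 subunit pairs with alpha v in many cells and with alpha IIb in platelets. It had 200, 181, 392, 218 and 28 in PAR1-/- mice for LPS 4 h, LPS 24 h, SP 4 h, SP 24 h and saline, against 98, 47, 94, 36 and 42 in WT mice. The 4 challenged PAR1-/- arrays all lay above the 4 challenged WT arrays, and the saline arrays lay the other way. Before normalization 3 of these 21 members (14.3%), Itgb3, Col5a2 and Col5a3, had their challenged arrays apart in this direction, against 7.5% of all 2014 probes above background on 4 or more arrays, and none had them apart in the other. Normalized, the levels were 151.6, 134.4, 139.7, 150.7 and 63 in PAR1-/- mice and 93, 48.1, 49.9, 74.3 and 90.3 in WT mice. The ratios to saline were 2.41, 2.13, 2.22 and 2.39 in PAR1-/- mice and 1.03, 0.532, 0.553 and 0.823 in WT mice. Without normalization they were 7.14, 6.46, 14 and 7.79 in PAR1-/- mice and 2.33, 1.12, 2.24 and 0.857 in WT mice, so the direction in WT mice for LPS 24 h and SP 4 h depends on the scaling and the order of the genotypes does not. Divided by the median of all probes, the unnormalized ratios were 3.46, 3.12, 4.04 and 3.68 in PAR1-/- mice and 1.08, 0.569, 0.784 and 0.857 in WT mice.

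Col5a2, a chain of the type V collagen that regulates the width of type I fibrils, had the same order. It had 48, 42, 87, 47 and 13 in PAR1-/- mice, all above background, and 20, 15, 16, 12 and 17 in WT mice, where the saline array alone was above background. The 4 challenged PAR1-/- values did not overlap the 4 challenged WT values. Its ratios were 1.66, 1.55, 1.49 and 1.59 in PAR1-/- mice, and at most 0.696, 0.456 and 0.665 in WT mice for LPS 4 h, SP 4 h and SP 24 h, while LPS 24 h gave none. Without normalization SP 24 h alone left a ratio in WT mice, at most 0.715. Over the 10 arrays Col5a2 and Itgb3 had a correlation of 0.728 normalized and 0.951 before normalization. The unnormalized value includes the brightness that genes share on an array. In the normalized value the 4 challenged WT levels of Col5a2 are thresholds, since those spots were under background. The unnormalized correlation of Itgb3 with Tnc was 0.884 and that with Fbln2 was 0.762, against 0.384 and -0.485 normalized.

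Markers of other cell types were summed before normalization, in the same order of conditions, and such sums share the brightness of their array. The 3 fibroblast markers on the array, Fap, Pdgfra and Vim, summed to 187, 174, 356, 223 and 67 in PAR1-/- mice and 172, 84, 202, 61 and 63 in WT mice. Normalized, with values under background raised to the threshold, these sums were 154.8, 150.8, 143.9, 173.7 and 143.4 in PAR1-/- mice and 165.7, 103.9, 111, 113.9 and 118.6 in WT mice. The 6 endothelial markers summed to 469, 409, 635, 502 and 90 in PAR1-/- mice and 299, 157, 434, 95 and 101 in WT mice. Normalized they were 378.1, 324.2, 249.4, 363.8 and 225.8 in PAR1-/- mice and 302, 251.2, 232.6, 206.6 and 223.4 in WT mice. The endothelial sums rest on Tie1, a receptor of the endothelium, with 414, 338, 557, 432 and 45 in PAR1-/- mice and 194, 82, 334, 48 and 52 in WT mice, while Pecam1, Kdr and Flt1 were above background on no array. Tek went the other way. It was above background on 2 arrays, with 37 for LPS 4 h and 39 for SP 4 h in WT mice, and had 8 to 16 in PAR1-/- mice. The 6 smooth muscle markers summed to 569, 602, 1244, 862 and 220 in PAR1-/- mice and 566, 303, 964, 230 and 153 in WT mice. Normalized they were 442.9, 453.2, 434.4, 581.4 and 624 in PAR1-/- mice and 536.8, 414.9, 439.8, 549.8 and 328.3 in WT mice. Within that list Acta2, the actin of smooth muscle, had 152, 131, 29, 151 and 112 in PAR1-/- mice and 194, 136, 69, 44 and 23 in WT mice, with normalized ratios of 0.34, 0.294, 0.0398 and 0.315 in PAR1-/- mice and 4.1, 3.71, 0.862 and 2.15 in WT mice. The Acta2 ratios were thus lower in PAR1-/- than in WT mice, the opposite order to Itgb3. They divide by unlike saline intensities, 112 in PAR1-/- and 23 in WT mice, and for SP 24 h the challenged intensity was higher in PAR1-/- mice. Before normalization the PAR1-/- values of 152, 131 and 151 exceeded the saline 112, so the direction of those ratios depends on the scaling. Other markers of this list differed from Acta2. Smtn reached 952 for SP 4 h in PAR1-/- mice. Its ratios were 1.1, 1.28, 1.64 and 1.86 in PAR1-/- mice and 1.21, 0.635, 1.61 and 1.89 in WT mice. Myh11 was at least 2.45, 2, 2.11 and 2.26 in PAR1-/- mice. In WT mice Myh11 was at least 2.66 for LPS 4 h and 2 for SP 4 h. Tagln was at least 1.1, 1.19, 1.06 and 1.63 in PAR1-/- mice. In WT mice Tagln was at most 0.959 for LPS 4 h and 0.629 for SP 4 h, and 1.08 for SP 24 h. The 3 urothelial markers summed to 71, 57, 89, 71 and 31 in PAR1-/- mice and 65, 45, 90, 35 and 33 in WT mice. Normalized they were 68.33, 59.85, 42.13, 64.4 and 67.75 in PAR1-/- mice and 72.12, 96, 54.24, 71.15 and 73.36 in WT mice. The part of these markers in the values of Itgb3 and Col5a2 was not tested.

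**Figure D3:**
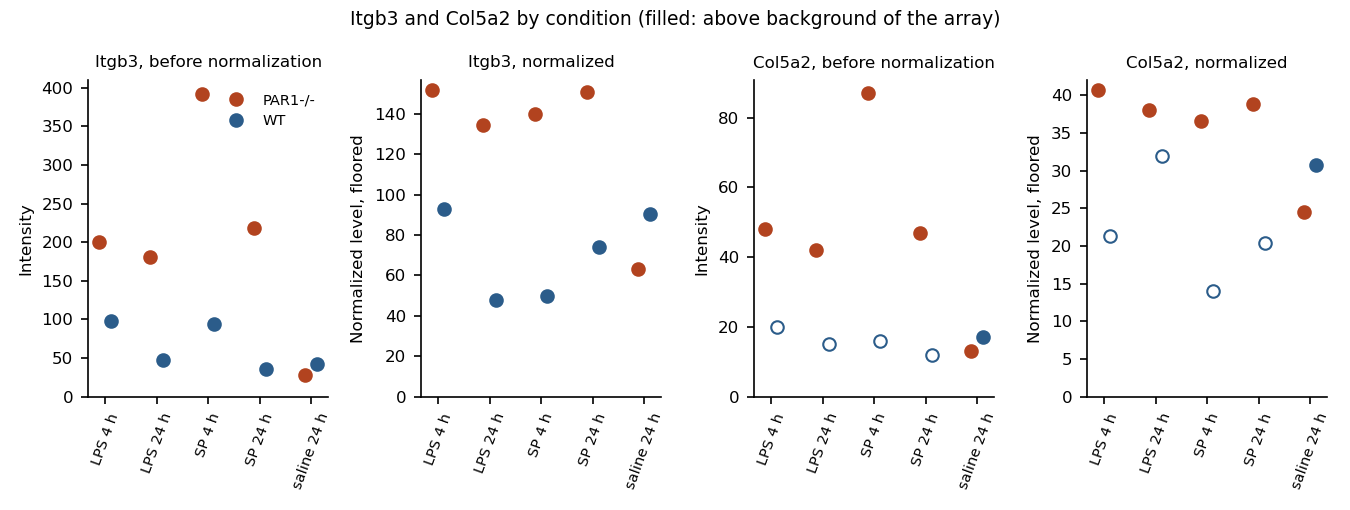
Itgb3 (left pair) and Col5a2 (right pair) by condition in PAR1-/- and WT mice, as intensity before normalization and as normalized level with values under background raised to the threshold (vertical axes), 1 array per point, filled where above background. After LPS and SP the PAR1-/- points lie above the WT points in every panel, and after saline the WT points lie above the PAR1-/- points.

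Among the other collagens Col6a1, Col10a1 and Col9a1 were resolved on most arrays. Col6a1, a chain of the microfibrillar type VI collagen found around muscle and fat cells, had 51, 44, 85, 50 and 12 in PAR1-/- mice and 42, 31, 50, 14 and 12 in WT mice. Both saline values were under background, so its ratios are bounds, at least 1.91, 1.76, 1.59 and 1.82 in PAR1-/- mice and at least 1.91, 1.33 and 1.13 in WT mice for LPS 4 h, SP 4 h and SP 24 h. Col10a1, known from hypertrophic cartilage, had 41, 33, 139, 35 and 28 in PAR1-/- mice and 52, 44, 103, 33 and 26 in WT mice, with ratios of 0.559, 0.491, 0.882 and 0.476 in PAR1-/- mice and 0.986, 0.875, 1.06 and 1.32 in WT mice. All 8 were over 1 without normalization, from 1.18 to 4.96. Col9a1, a chain of the type IX collagen of cartilage, had normalized ratios between 0.909 and 1.38. Col7a1 of anchoring fibrils, Col17a1 of hemidesmosomes, Col11a2 and Col13a1 reached 33, 23, 23 and 24 at most, and Itgb1bp1 reached 33.

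Col9a2 was the single member with a ratio below saline past 3-fold. It had 14, 14, 24, 13 and 21 in PAR1-/- mice and 15, 15, 21, 28 and 20 in WT mice, and both saline arrays were above background. For SP 4 h in PAR1-/- mice the normalized ratio was at most 0.265, and 1 of 15 members was called there against 2.5% of all probes. The other PAR1-/- ratios were at most 0.37 for LPS 4 h, 0.425 for LPS 24 h and 0.395 for SP 24 h. The call rests on the scaling, since the SP 4 h intensity of 24, just under the threshold of 24.15, exceeds the 21 after saline and no ratio is left without normalization. In WT mice Col9a2 was at most 0.573, 0.86 and 0.376 for LPS 4 h, LPS 24 h and SP 4 h, and 1.48-fold the saline level for SP 24 h. The remaining fibrillar chain with several ratios, Col5a3, was at least 1.04 for LPS 24 h and at least 1.29 for SP 24 h in PAR1-/- mice, and in WT mice at most 0.878 for LPS 4 h and 0.575 for SP 4 h, with a measured ratio of 1.08 for SP 24 h.

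The basement membrane genes were dim. Of 11 probes, 8 were above background on at least 1 array, none on all, and the highest intensity was 48. No ratio of this group passed 3-fold in either direction, and of its 13 ratios measured on both arrays 1 was over 1, against 12 of the same 13 without normalization. Col4a3, a chain of type IV collagen, had 24, 28, 48, 22 and 13 in PAR1-/- mice and 20, 15, 24, 11 and 16 in WT mice, with ratios of 0.877, 1.1, 0.879 and 0.812 in PAR1-/- mice and 0.521 for SP 4 h in WT mice. Lamc1, the gamma 1 chain found in most laminins, had 14, 12, 38, 18 and 11 in PAR1-/- mice and 23, 15, 28, 14 and 14 in WT mice, and its ratios were 0.935, 0.701 and 0.992 in WT mice for LPS 4 h, SP 4 h and SP 24 h. Nid2, a nidogen that links laminin to type IV collagen, was at least 1.35-fold the saline level 4 h after LPS in PAR1-/- mice and at least 1.03-fold 24 h after SP in WT mice. On each SP 4 h array 7 of the 11 were above background, more than on any other array of the genotype. Lama1 and Lama3, alpha chains of laminins, Lama5 and Lamb1 reached 29, 28, 30 and 28 at most. These arrays also had the highest share of all probes above background in their genotype, given above, and the highest total intensity, 275793 in PAR1-/- mice and 242953 in WT mice.

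The fibulins held both the brightest member and the largest ratio in PAR1-/- mice. Fbln1, which binds fibronectin and elastic fibres, had 15, 180, 44, 23 and 9 in PAR1-/- mice for LPS 4 h, LPS 24 h, SP 4 h, SP 24 h and saline, against 21, 15, 15, 10 and 9 in WT mice. It was at least 5.92-fold the saline level 24 h after LPS in PAR1-/- mice, where 1 of 20 members was more than 3-fold higher against 1.32% of all probes. It was above background on 3 PAR1-/- arrays and on no WT array. The WT array of the same condition holds its floor of 15 for this gene, so the WT level there is a bound only. Normalized, it was at most 32 against 133.7 in PAR1-/- mice, 1 array each, and the size of the difference is not known. Fbln2, a fibulin of vessel walls and basement membranes, had 220, 271, 503, 225 and 55 in PAR1-/- mice and 159, 190, 555, 119 and 97 in WT mice. Its normalized ratios were 1.15, 1.32, 1.21 and 1.07 in PAR1-/- mice and 0.606, 0.976, 0.983 and 1.26 in WT mice, and lay between 1.23 and 9.15 without normalization.

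Tnc was the brightest matricellular gene. Tenascin C, its product, is known to appear in inflamed and healing tissue. It had 85, 135, 344, 111 and 32 in PAR1-/- mice and 84, 63, 143, 54 and 40 in WT mice, and the ratios were 0.929, 1.41, 1.68 and 1.12 in PAR1-/- mice and 0.939, 0.79, 0.85 and 1.41 in WT mice. None passed 3-fold, and without normalization they lay between 1.35 and 10.8. Thbs1 and Thbs3, thrombospondins that bind cells and matrix, reached 37 and 41 on the PAR1-/- SP 4 h array, and 28 and 26 on the WT SP 4 h array. Their WT ratios 4 h after SP were 0.765 and 0.656, against 2.15 and 1.86 without normalization, so the direction depends on the scaling. Sparc, a collagen-binding protein of bone and wounds, was above background on 2 arrays, with 30 for SP 4 h in PAR1-/- mice and 14 for SP 24 h in WT mice. Vtn, the ligand of alpha v integrins, was above background on 2 WT arrays, with 27 for LPS 4 h and 30 for SP 4 h, and at least 1.24-fold the saline level for LPS 4 h. Its PAR1-/- values were 10 to 15, all under background.

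Among members above background on both arrays of a comparison, whose ratios need no bound, the median normalized ratio was 0.984, 1.32, 1.02 and 1.07 in PAR1-/- mice for LPS 4 h, LPS 24 h, SP 4 h and SP 24 h, against 0.922, 0.981, 0.863 and 0.934 for all probes so measured. In WT mice it was 0.963, 0.79, 0.765 and 0.992, against 1.08, 1.01, 0.89 and 1.02. These medians rest on 10, 9, 11 and 11 members in PAR1-/- mice and on 8, 5, 13 and 11 in WT mice, and carry no test. In the 6 comparisons not yet named no member was more than 3-fold above saline. The share of all probes above it there was 1.84% for LPS 4 h, 1.28% for SP 4 h and 1.57% for SP 24 h in PAR1-/- mice, and 1.73% for LPS 24 h, 4.69% for SP 4 h and 0.772% for SP 24 h in WT mice. Beyond Col9a2 none was more than 3-fold below saline, a direction in which all probes gave 1.55%, 1.43% and 1.52% for LPS 4 h, LPS 24 h and SP 24 h in PAR1-/- mice, and 0.881%, 0.247%, 1.47% and 0.496% for LPS 4 h, LPS 24 h, SP 4 h and SP 24 h in WT mice.

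**Figure D4:**
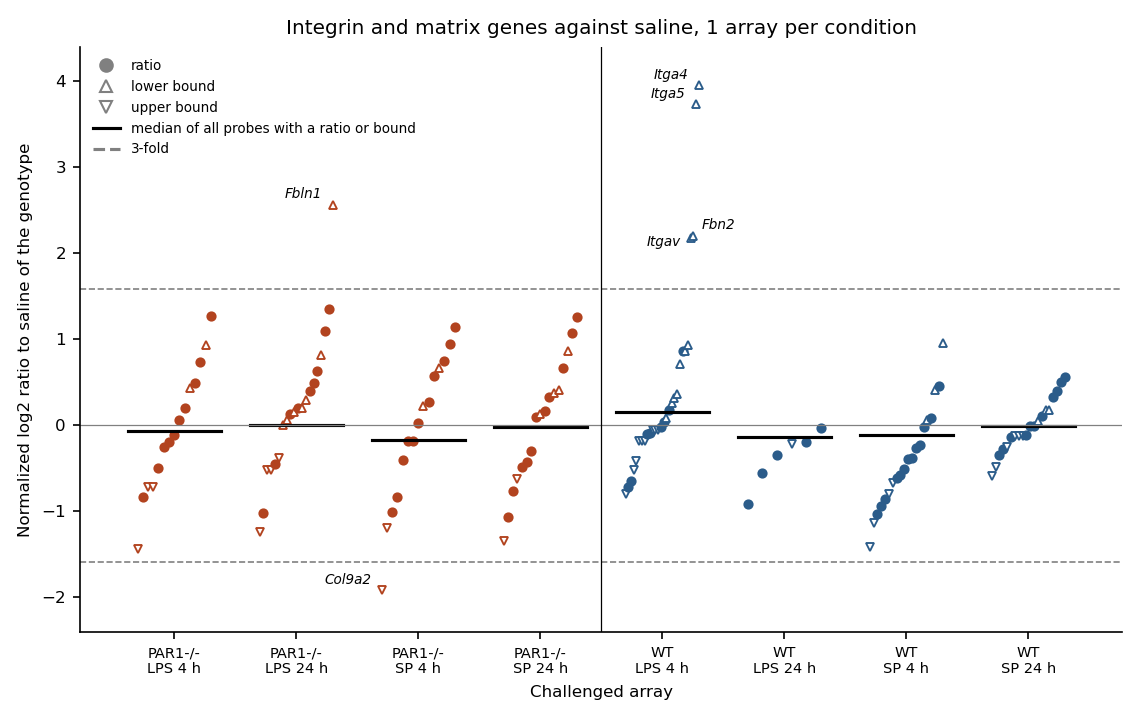
Normalized log2 ratio to saline within the genotype (vertical axis) of the integrin and matrix genes with a ratio (filled), a lower bound (open, pointing up) or an upper bound (open, pointing down) in the 8 comparisons (horizontal axis), with the median of all probes (black line) and 3-fold (dashed). The points beyond 3-fold are Fbln1 24 h after LPS and Col9a2 4 h after SP in PAR1-/- mice and Itga4, Itga5, Fbn2 and Itgav 4 h after LPS in WT mice.

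To compare genotypes, times and stimuli over several arrays, limma was fitted to the 2014 probes found above background on 4 or more arrays, among them 21 of the 62 members. Itga4, Itga5 and Fbn2 did not enter this fit. Each array is a different condition or genotype, so the SE and p-values rest on how the genotype difference varied between conditions. They do not measure the spread between pools of 1 condition. No member passed an adjusted p of 0.05 in any contrast, and over all probes 2 did for challenge against saline (0.0993%) and 0 for the other contrasts. For genotype, PAR1-/- minus WT over 5 conditions, 4 of the 21 members (19%) had an unadjusted p under 0.05 in limma, against 12.9% of all probes. The log2 difference was 0.835 ± 0.28 (SE, 5 arrays per genotype) for Itgb3, with an adjusted p of 0.314 in limma and a higher value in PAR1-/- mice in 4 of 5 conditions. For Col5a2 it was 0.64 ± 0.25, with an adjusted p of 0.345 in limma and 4 of 5 conditions. Itgb1 had -0.68 ± 0.23 and Fbln2 had -0.48 ± 0.22, with adjusted p of 0.314 and 0.379 in limma, and were higher in PAR1-/- mice in 0 and 1 of 5 conditions. For Itgb1 the order at LPS 24 h is not settled. The WT intensity of 15 was raised to the threshold, a normalized 32 against 26 in PAR1-/- mice. With a floor of 15 there, an alternative added after the data were seen, its difference was -0.475 (adjusted p of 0.691 in limma). Before normalization, with no value raised, Itgb1 was higher in PAR1-/- mice in 2 of 5 conditions and Fbln2 in 3. Itgb3 and Col5a2 stayed at 4.

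**Figure D5:**
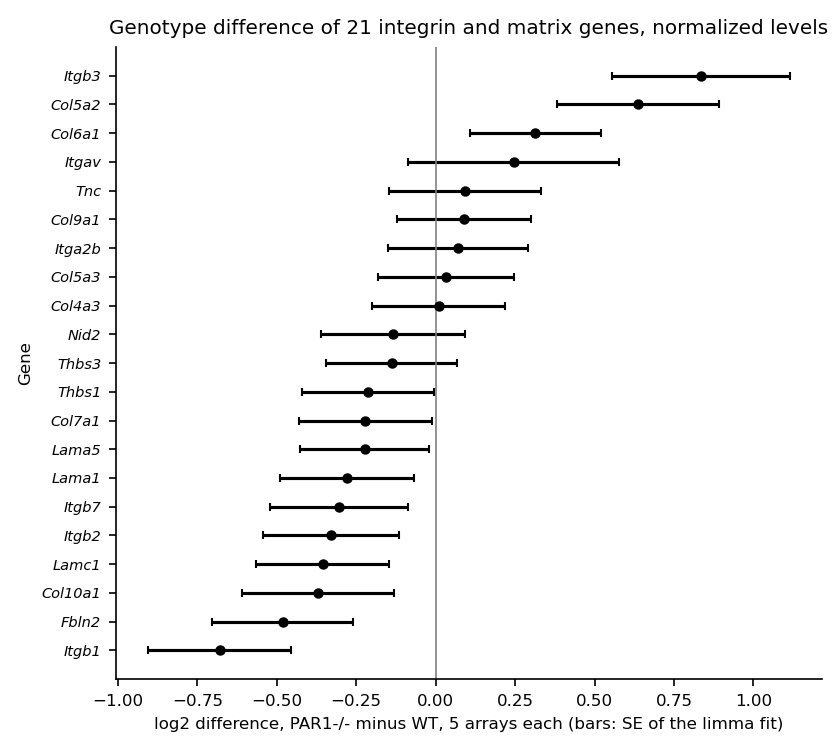
Log2 difference of normalized levels between PAR1-/- and WT mice (horizontal axis, PAR1-/- minus WT, 5 arrays each, 1 per condition, bars are the SE of the limma fit) for the 21 integrin and matrix genes above background on at least 4 arrays (vertical axis). Itgb3 (0.835) and Itgb1 (-0.68) lie at the ends, and none passed an adjusted p of 0.05.

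For the interaction, the challenge effect in PAR1-/- mice minus that in WT mice, Itgb3 had a log2 value of 1.69 ± 0.53 and Col5a2 of 1.20 ± 0.56, each with an adjusted p of 0.949 in limma, and 1 of 21 members (4.76%) had an unadjusted p under 0.05 against 3.77% of all probes. For challenge against saline, Itgav had 0.94 ± 0.41 and Col6a1 had 0.67 ± 0.26, with adjusted p of 0.385 and 0.322 in limma, and 2 of 21 members (9.52%) had an unadjusted p under 0.05 against 11.8% of all probes. For time (24 h minus 4 h) and stimulus (LPS minus SP), 1 member each (4.76%) had one, Col5a3 at 0.54 ± 0.24 and Nid2 at 0.56 ± 0.25, against 12.4% and 7.7% of all probes. Both rest in part on values raised to the threshold, as on the WT LPS 24 h array, where 15 became a normalized 32. With a floor of 15 on that array, an alternative added after the data were seen, 0 members had such a p in either contrast. With 5 pairs of arrays the smallest two-sided p an exact sign-flip test could give is 0.0625, so none was run gene by gene.

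Genes around the matrix were given the same description. Of 15 metalloproteinases and inhibitors, 12 were above background on some array, and 4 h after LPS in WT mice 3 of the 10 with a ratio or bound were more than 3-fold above saline. These were Mmp7 (matrilysin, at least 8.88), Mmp12 (the macrophage elastase, 3.45) and Timp3 (a matrix-bound inhibitor, at least 3.05). Mmp12 was also 3.7-fold 4 h after SP in WT mice, and none of the 15 passed 3-fold in PAR1-/- mice, where Mmp12 had ratios of 2.36, 2.73, 2.33 and 2.91. The share of all probes past 3-fold was 5.46% for LPS 4 h and 4.69% for SP 4 h in WT mice, and between 1.28% and 1.84% in PAR1-/- mice. Of the 9 genes of collagen processing, the 9 focal adhesion proteins and the 9 adhesion receptors of endothelium and leukocytes, none passed 3-fold in either direction in any comparison. Among these receptors are ligands of the integrins above. Vcam1, which binds alpha 4 beta 1, had 20, 21, 25, 16 and 13 in PAR1-/- mice and 19, 15, 21, 11 and 12 in WT mice, and Icam1, which binds alpha L beta 2, had 31, 23, 48, 22 and 11 in PAR1-/- mice and 18, 15, 23, 19 and 13 in WT mice. Of 8 genes of TGF-beta signalling 1 passed, Tgfbr1 at least 3.4-fold 4 h after LPS in WT mice. No gene of these lists passed the adjusted p of 0.05 in a limma contrast.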

How the data were processed

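The values are scores that the authors deposited in 1 table of 5030 probes by 10 arrays. Per the study's methods the authors labelled 1 pool of RNA per condition with 33P, hybridized it to a Clontech Atlas mouse plastic array, quantified the spots with AtlasImage and normalized by robust linear regression. On the log2 scale every probe's scores average 0 with an equal SD, a step the methods do not describe, so the scores hold neither levels nor fold changes. Whole numbers up to 3000 were searched for the smallest set that yields the scores of a probe, and accepted where fewer than 0.01 matches were expected by chance. This left out 236 probes, 3 of them members. Levels assume that the smallest set is the right one. The recovered intensities are not normalized between arrays.

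The background mode was the peak of a kernel density and its SD was taken over the values below the mode. Arrays were regressed (rlm of MASS 7.3.60.0.1, R 4.3.3) on their mean log2 intensity over 502 probes. In 8 comparisons a challenged array was divided by saline of the same genotype, and a ratio or bound beyond 3-fold was counted. limma 3.58.1 fitted conditions and genotype, with p-values adjusted by Benjamini-Hochberg over 2014 probes. The fits and the search were tested on simulated data. The total intensity of an array ran from 69106 to 275793, and 1 array per condition limits the precision of every ratio.

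The members and gene lists were chosen with earlier results of these data known. Named genes are those beyond 3-fold, past the adjusted p, above background on all arrays, or among the 3 highest of their group, and the other members named were chosen after their values were seen. Probes were named by the platform annotation, all 65 members matched RefSeq by Entrez ID with the same symbol, and no genome was used. Alternatives changed the normalization, the threshold, the filter, the values fitted and the arrays used, and 2 were added after the data were seen, a floor of 15 on the WT LPS 24 h array and subtraction of the background mode.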

Additional observations from a re-analysis of the deposited data

Results flagged for a closer look

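For Col5a2 and Itga2b the ratios and bounds given lay above 1 in PAR1-/- mice and below 1 in WT mice, a difference not tested by this count. Bounds were kept on 1 side only and could not have come out otherwise, unlike ratios measured on both arrays. Thbs3 had the same order on fewer values. It was at least 1.09 for SP 24 h in PAR1-/- mice, and at most 0.878, then 0.656 and 0.992, for LPS 4 h, SP 4 h and SP 24 h in WT mice. Col5a2 had a median log2 ratio of 0.651 in PAR1-/- mice, over 4 ratios measured on both arrays, and of -0.59 in WT mice, over 3 upper bounds. Its interaction of genotype and challenge did not pass in limma (adjusted p of 0.949). Itga2b, the platelet integrin subunit, had a median log2 ratio of 0.294 in PAR1-/- mice, over 3 lower bounds, and of -0.255 in WT mice, over 1 ratio and 2 upper bounds, and before normalization its WT ratio 4 h after SP was 2.21, so the direction in WT mice depends on the scaling. The fit gave Itga2b a genotype difference of 0.07 ± 0.22 with an adjusted p of 0.889 in limma.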

How the results depend on the processing

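Without normalization between arrays the members more than 3-fold above saline numbered 5, 7, 18 and 6 for LPS 4 h, LPS 24 h, SP 4 h and SP 24 h in PAR1-/- mice and 7 each for LPS 4 h and SP 4 h in WT mice, shares of 21.7%, 35%, 62.1%, 23.1%, 36.8% and 26.9% against 24.9%, 24.8%, 60.8%, 26.8%, 26% and 46.1% of all probes, and 0 lay more than 3-fold below saline for SP 4 h in PAR1-/- mice. In limma 1 member (Itgb3, 1.41) then passed for genotype and 13 passed for challenge, against 1.69% and 59% of all probes, and the genotype difference of Fbln2 turned to 0.188. With a shift in place of the regression, 1, 1, 3 and 1 members were more than 3-fold below saline for LPS 4 h, LPS 24 h, SP 4 h and SP 24 h in PAR1-/- mice, and 2 for SP 4 h in WT mice, against 4.35%, 3.15%, 16.5%, 3.2% and 4.78% of all probes. Subtracting the background mode, an alternative added after the data were seen, gave 1, 3, 2 and 2 members above and 1, 1, 2 and 1 below saline in PAR1-/- mice, in the same order, 7 above and 1 below for LPS 4 h in WT mice and 1 above and 3 below for SP 4 h in WT mice, and in these 6 comparisons all probes gave 6.32% to 19.9% above and 4.37% to 12.8% below. The cause was not tested. Leaving out 1 array at a time, the members called for challenge ranged from 0 to 1, the 1 being Itgav without the PAR1-/- LPS 4 h array (1.21, adjusted p of 0.0339 in limma), and no other limma contrast called a member. Without that array 2.78% of all probes passed for challenge, against 0.0993% in the main fit, so the rise was not particular to Itgav. The other 136 counts so recomputed kept their main value. For most of them that value was 0, so their agreement says little about robustness. The genotype contrast compares arrays within condition. Beyond that, no paired analysis was possible because no label numbers replicates or ties animals across groups. Members near background, and nearly all members on the WT LPS 24 h array, are limited by low signal.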
